A study of Mus musculus with 9 samples.

Results

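The proteasome is the barrel-shaped protease that degrades ubiquitin-tagged proteins in every cell. The genes described here are the protein-coding genes whose symbol is Psma, Psmb, Psmc, Psmd, Psme, Psmf or Psmg followed by a digit, which number 51 of the 55416 genes counted. They were compared between 4 *Atf4* null and 5 wildtype lens libraries, each made from the single pair of lenses of 1 mouse embryo at E16.5 of development. ATF4 is a transcription factor of the stress response, and the null embryos were homozygous for Atf4tm1Tow, in which a neomycin cassette takes the place of exons 3 and 4. Wildtype embryos came from the same heterozygous intercrosses, and both groups shared a mixed C57Bl/6/129 background that was not genotyped for the *Bfsp2* deletion carried by 129 mice. The mutation is carried by every cell of the embryo and not only by the lens.

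The 20S core of the proteasome is a stack of rings. Alpha subunits, encoded by Psma genes, form the gated outer rings, and beta subunits, encoded by Psmb genes, form the inner rings, of which *Psmb5*, *Psmb6* and *Psmb7* carry the constitutive active sites. In cells exposed to interferon these are replaced by *Psmb8*, *Psmb9* and *Psmb10*, which gives the immunoproteasome. The 19S cap recognises ubiquitin, removes it and unfolds the substrate with a ring of ATPases encoded by Psmc genes, while most Psmd genes encode its other subunits. Psme genes encode activators that can replace the cap, *Psmf1* encodes an inhibitor, and Psmg genes with *Psmd5*, *Psmd9* and *Psmd10* encode chaperones that assemble the particle. When the proteasome is inhibited, the transcription factor NRF1, encoded by *Nfe2l1*, raises its subunit genes through antioxidant response elements. In the lens, fiber cells lose their organelles as they mature, and the ubiquitin-proteasome system is among the means by which they turn over protein.

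Gene counts ran from 7440807 to 8906996 per library, and the 51 genes took between 0.292% and 0.441% of them. *Atf4* itself, which checks the labels, stood at 3.29, 8.64, 10.6 and 0.582 CPM (counts relative to the library's size after TMM scaling) in *Atf4* null libraries 1 to 4, against 119 to 155 CPM in the wildtype libraries. Markers of lens were present in every library, although *Lim2*, a fiber cell membrane gene, had no counts in any of the 9. *Lenep*, also of the fiber list, was at most 0.291 CPM. The part of the gene annotation in these values was not tested. Wildtype library 5 stood apart, with a summed level of 4472 CPM over skeletal muscle markers and 14434 CPM over mesenchyme markers, against at most 48.4 and 554 CPM in the other 8 libraries. In the *Atf4* null libraries, 5 of 10 retina markers were higher at an adjusted p below 0.05. Of 10 lens epithelium markers, 7 were lower and 1 higher. Of all genes tested, 2.23% were higher and 3.67% lower. The summed retina level was 316 to 807 CPM in the null against 187 to 300.5 CPM in wildtype. None of the 12 macrophage and leukocyte markers passed the test, and their summed level was 113 to 136 CPM in the null and 101 to 127 CPM in wildtype libraries. The summed endothelium level was 170 to 377 CPM in the null and 322 to 595 CPM in wildtype libraries, with 1 of 8 markers lower, and the summed erythroid level was 183 to 256 and 231 to 743 CPM, with 1 of 7 tested markers lower. The part of these markers in the values below was not tested, except where values without a library are given.

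The promoter windows of 3 subunit genes are shown because they hold the letters through which NRF1 and ATF4 are known to bind DNA. Each runs 5′ to 3′ on the strand of the gene, from 250 bases before the start to 50 bases after it, from RefSeq on GRCm38.p6. Capitals mark a match to the antioxidant response element core TGACNNNGC, to the ATF4 element TGATGCAA or, in *Psmd12* and *Psmd13*, also to the ETS site core CCGGAAG, searched on both strands. *Psmd12* encodes a scaffold subunit of the 19S lid and its window lies at chr11:107479278-107479577, plus strand. *Psmb6* encodes the caspase-like active site and its window lies at chr11:70525107-70525406, plus strand. *Psmd13*, also a lid scaffold, has its window at chr7:140882144-140882443, plus strand.
Psmd12: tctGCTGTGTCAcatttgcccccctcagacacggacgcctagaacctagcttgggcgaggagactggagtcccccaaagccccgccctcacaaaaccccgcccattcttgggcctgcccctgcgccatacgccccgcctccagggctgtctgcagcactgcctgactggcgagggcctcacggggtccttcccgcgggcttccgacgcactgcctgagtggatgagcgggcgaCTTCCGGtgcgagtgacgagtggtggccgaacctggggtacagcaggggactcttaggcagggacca
Psmb6: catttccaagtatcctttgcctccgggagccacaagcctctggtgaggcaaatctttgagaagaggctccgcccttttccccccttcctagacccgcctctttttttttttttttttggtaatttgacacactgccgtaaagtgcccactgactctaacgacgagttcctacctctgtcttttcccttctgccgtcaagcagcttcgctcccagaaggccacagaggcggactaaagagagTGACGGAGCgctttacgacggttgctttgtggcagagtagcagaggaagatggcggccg
Psmd13: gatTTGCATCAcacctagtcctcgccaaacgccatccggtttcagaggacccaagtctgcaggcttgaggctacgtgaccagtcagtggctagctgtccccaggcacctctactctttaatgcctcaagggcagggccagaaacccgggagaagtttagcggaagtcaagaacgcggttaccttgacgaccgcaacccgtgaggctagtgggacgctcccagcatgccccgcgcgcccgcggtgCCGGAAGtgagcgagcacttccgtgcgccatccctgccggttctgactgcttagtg
In *Psmd12* the match to the antioxidant element begins at base -247 on the reverse strand and the ETS match at base -17, on the reverse strand too. In *Psmb6* the antioxidant match begins at base -9, while in *Psmd13* the ATF4 match begins at base -247, also on the reverse strand, and the ETS match at base -6.

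Windows were found for 43 of the 51 genes, 47 windows in all, and were set against the 32851 windows of all genes. The antioxidant core was in 12.8% of the proteasome windows, those of *Psmb5*, *Psmb6*, *Psmc6*, *Psmd9*, *Psmd12* and *Psme4*, and in 12.4% of all windows. The ATF4 element was in 1 proteasome window, that of *Psmd13*, which is 2.13% against 0.895% of all windows. The ETS core was in 36.2% of the proteasome windows and 8.86% of all windows. CCAAT was in 34.0% and 37.4%, and the interferon response core, GAAA and again GAAA with any 2 bases between, in 10.6% and 3.44%. In the 3 windows shown no marked match overlaps another. A match to letters is a description of the window and not of binding.

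Of the 51 genes, 47 had enough counts to be tested. None of the 47 was called different between the genotypes by edgeR's quasi-likelihood test at an adjusted p below 0.05, where 5.90% of the 14903 genes tested were, 2.23% as higher and 3.67% as lower in the *Atf4* null. The smallest adjusted p among them was 0.0924, for *Psmd12*. At an unadjusted p below 0.05 there were 3 of the 47, *Psmd12*, *Psma4* and *Psme2*, which is 6.38%, against 19.6% of all genes tested. edgeR's exactTest also called none, where it called 7.11% of all genes, and DESeq2 called *Psmd12* alone, with an adjusted p of 0.0449, where it called 9.37% of all genes. With library size alone in place of TMM scaling, 3 of the 47 were called higher, *Psmd12*, *Psma4* and *Psmd3*, beside 5.30% of all genes, and the median log2 fold change of all genes moved to 0.12. None of the 47 had levels that did not overlap between the genotypes, which 10.2% of all genes tested had.

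The intervals show how large a difference the data leave room for. The 95% interval of the fold change lay within 1.5-fold in both directions for 24 of the 47 proteasome genes, against 23.3% of all genes tested, and within 2-fold for 43 of the 47, against 52.4%. The 4 whose interval passed 2-fold were *Psme2*, *Psmb8*, *Psmb10* and *Psmg3*. The median standard error was 0.18 on the log2 scale for the proteasome genes and 0.27 for all genes tested. Within a genotype, the median standard deviation of log2 CPM was 0.25 in wildtype and 0.32 in *Atf4* null libraries for the proteasome genes, against 0.37 and 0.39 for all genes. These comparisons were not matched for level, and 44 of the 47 averaged at least 50 counts in at least 1 genotype. The part of expression level in these widths was not tested.

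**Figure D1:**
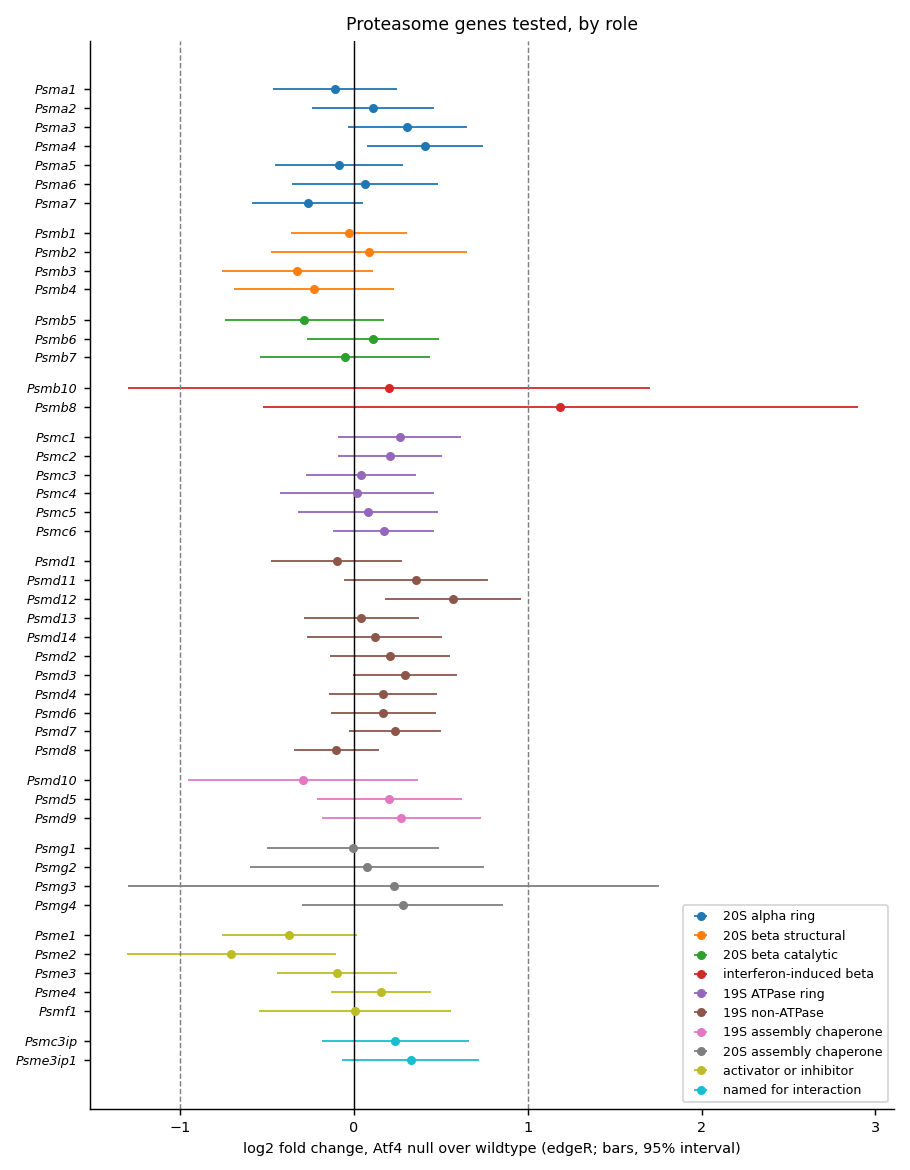
Log2 fold change of each of the 47 proteasome genes tested, *Atf4* null over wildtype (horizontal axis), grouped by role and coloured by it, with points for the edgeR estimate and bars for its 95% interval. Dashed lines mark a 2-fold change. The intervals of 43 of the 47 genes stay between the dashed lines, and those of *Psme2*, *Psmb8*, *Psmb10* and *Psmg3* do not.

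The fitted log2 fold change was positive for 32 of the 47 genes, where it was positive for 50.1% of all genes, and its median was 0.11, where the median of all genes was 0.00. That median rested on single libraries, since it was -0.02 without *Atf4* null library 4 and 0.01 without wildtype library 5, and 0.19 without *Atf4* null library 1. The count of positive values was 22 without *Atf4* null library 4 and 25 without wildtype library 5. Summed over the 51 genes, the level was 3787 ± 714 CPM (SD, n = 4) in the *Atf4* null and 3508 ± 425 CPM (SD, n = 5) in the wildtype libraries, a difference smaller than either spread.

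Libraries of the same genotype differed in the level of many proteasome genes at once. The deviation of each gene's log2 CPM from its own mean over the 9 libraries had a median over the 47 genes of -0.23, 0.04, 0.02 and 0.42 in *Atf4* null libraries 1 to 4. In wildtype libraries 1 to 5 it was 0.09, 0.07, 0.02, 0.03 and -0.34. Over all genes tested this median stayed between -0.01 and 0.03 in every library. *Atf4* null library 4 held the highest level of the 9 for 28 of the 47 genes, and for 18.4% of all genes tested. Wildtype library 5 held the lowest for 24 of the 47, and for 14.2% of all genes. The genotypes overlapped in this median, since the null held both the highest value of the 9 and the next to lowest.

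**Figure D2:**
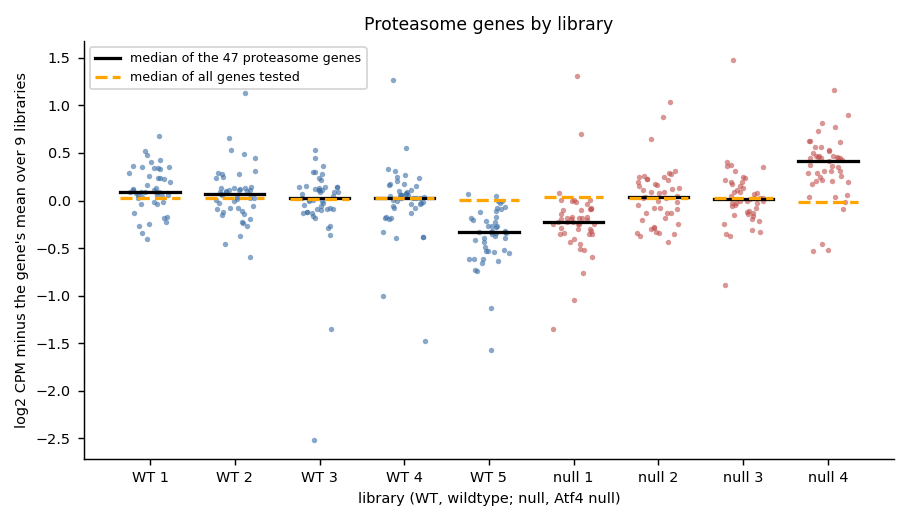
Deviation of log2 CPM from the gene's mean over 9 libraries (vertical axis) for the 47 proteasome genes in each library (horizontal axis), with points for genes, black lines for their median and dashed lines for the median of all genes tested. The points of *Atf4* null library 4 centre on 0.42, those of wildtype library 5 on -0.34 and those of *Atf4* null library 1 on -0.23, while the dashed lines stay near 0.

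The level of lens fiber cell markers differed between the same libraries. Their summed level was 14915, 23242, 22266 and 34549 CPM in *Atf4* null libraries 1 to 4, so that the library with the most fiber marker RNA of the 4 was also the one with the highest proteasome levels and the one with the least had the lowest. The level of *Atf4* null library 4 was nonetheless below that of wildtype libraries 1 to 4, although its proteasome median was the highest of the 9. The summed retina level ran the other way in the null, at 807, 518, 570 and 316 CPM in libraries 1 to 4. In wildtype the summed fiber level was 39938, 36060, 38356, 37921 and 21373 CPM, lowest in library 5, in which the proteasome genes were also lowest. Between genotypes, 4 of the 10 fiber markers tested were lower in the *Atf4* null and none was higher, beside 3.67% and 2.23% of all genes. In whole lenses, fewer cells of a type and less RNA per cell cannot be told apart, and the part of the fiber and retina marker levels in the proteasome values was not tested.

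None of the 17 subunits of the 19S cap that the symbol rule takes was called by edgeR's quasi-likelihood test, beside 5.90% of all genes, while DESeq2 called *Psmd12* and library size alone called *Psmd12* and *Psmd3*. 15 of the 17 estimates were positive, with a median of 0.17. The intervals of 13 of the 17 lay within 1.5-fold, beside 23.3% of all genes tested. Without *Atf4* null library 4 there were 10 positive estimates with a median of 0.03, and without wildtype library 5 there were 12 with a median of 0.10. The 6 ATPases, *Psmc1* to *Psmc6*, gave 6 positive estimates from 0.02 for *Psmc4* to 0.26 for *Psmc1*. Among the 11 non-ATPase subunits the estimates ran from -0.10 for *Psmd8* to 0.57 for *Psmd12*. *Psmd1* and *Psmd2*, the large scaffolds of the base, stood at -0.10 and 0.21, *Psmd4*, a ubiquitin receptor, at 0.17, and *Psmd14*, the deubiquitinase of the lid, at 0.12 with a 95% interval of -0.27 to 0.51.

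*Psmd12* (ENSMUSG00000020720, chr11:107370246-107395206 on GRCm39) had the smallest p of the proteasome genes. Its level was 64.8, 82.5, 82.0 and 122 CPM in *Atf4* null libraries 1 to 4 and 58.5, 57.5, 73.5, 61.3 and 45.3 CPM in wildtype libraries 1 to 5. *Atf4* null libraries 2 to 4 were above every wildtype library, and library 1 lay among them. The log2 fold change was 0.57 (SE 0.18, 95% interval 0.18 to 0.96), with an adjusted p of 0.0924 from edgeR and an exact two-sided permutation p of 0.0317, where 0.00794 is the smallest p that 4 against 5 libraries can give. Its adjusted p ran from 0.0143 to 0.238 over the 17 alternatives and was below 0.05 in 3 of them, DESeq2, library size alone and the fit without *Atf4* null library 1. The log2 fold change was 0.37 without *Atf4* null library 4. *Psmd11* (chr11:80319400-80364074), a lid scaffold that lies next to the *Psmd12* protein, was at 77.6, 108, 93.4 and 153 CPM in the null and 99.5, 98.1, 86.8, 73.2 and 62.6 CPM in wildtype libraries. Null libraries 2 and 4 were above every wildtype library and 1 and 3 were among them, and the log2 fold change of 0.36 had an adjusted p of 0.337 and an exact permutation p of 0.206, and was 0.14 without *Atf4* null library 4.

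The 14 constitutive subunits of the 20S core gave 6 positive and 8 negative estimates with a median of -0.04. None was called by edgeR's quasi-likelihood test, beside 5.90% of all genes. Without *Atf4* null library 4 there were 3 positive estimates with a median of -0.20, and with library size alone there were 10 with a median of 0.07. There were 8 positive estimates without *Atf4* null library 1 and 8 without wildtype library 1, with medians of 0.08 and 0.01. All 14 intervals lay within 2-fold, and 7 within 1.5-fold, beside 52.4% and 23.3% of all genes tested. The 7 alpha subunits ran from -0.27 for *Psma7* to 0.41 for *Psma4*. *Psma4* (chr9:54858066-54866448) was at 111, 158, 148 and 198 CPM in the *Atf4* null and 128, 129, 119, 99.5 and 102 CPM in the wildtype libraries, again with null libraries 2 to 4 above every wildtype library. Its log2 fold change was 0.41 (SE 0.16), with an adjusted p of 0.156 and an exact permutation p of 0.0635, and it was 0.26 without *Atf4* null library 4. It was called with library size alone, at 0.51 with an adjusted p of 0.0222, and without *Atf4* null library 1, at 0.54 with an adjusted p of 0.0368, and its adjusted p reached 0.358 over the 17 alternatives. Its exons overlap those of *AY074887* on the opposite strand. *Psma8*, which replaces *Psma7* in the germ line, had too few counts to be tested, with levels of at most 1.46 CPM.

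Among the 7 constitutive beta subunits, 5 estimates were negative and the median was -0.05. *Psmb5*, the chymotrypsin-like active site, was at 14.7, 12.2, 13.7 and 16.02 CPM in the *Atf4* null and 21.8, 19.01, 14.5, 16.3 and 14.8 CPM in the wildtype libraries (log2 fold change -0.29, adjusted p 0.520, exact permutation p 0.111). The 3 highest levels were in wildtype libraries, and null libraries 2 and 3 were below every wildtype library. Without wildtype library 1 the log2 fold change was -0.19. *Psmb6*, whose promoter is shown above, was at 94.9, 111, 118 and 149 CPM in the null and 141, 117, 92.02, 120 and 76.9 CPM in wildtype libraries, with a log2 fold change of 0.11. *Psmb7*, the trypsin-like active site, was at 31.2, 37.7, 41.9 and 61.4 CPM in the null and 53.8, 46.9, 52.6, 41.9 and 27.9 CPM in wildtype libraries, with a log2 fold change of -0.05. For both, the ranges of the genotypes overlapped widely, and the sign of these 2 estimates changed when single libraries were left out. *Psmb3* (chr11:97594073-97604335), a structural beta subunit, had the most negative value of the core, at 35.5, 30.8, 40.0 and 37.6 CPM in the null and 57.4, 57.8, 44.3, 30.8 and 35.6 CPM in wildtype libraries. Wildtype libraries 1 to 3 were above every null library and 4 and 5 were not, and the log2 fold change of -0.33 had an adjusted p of 0.418 and an exact permutation p of 0.238.

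**Figure D3:**
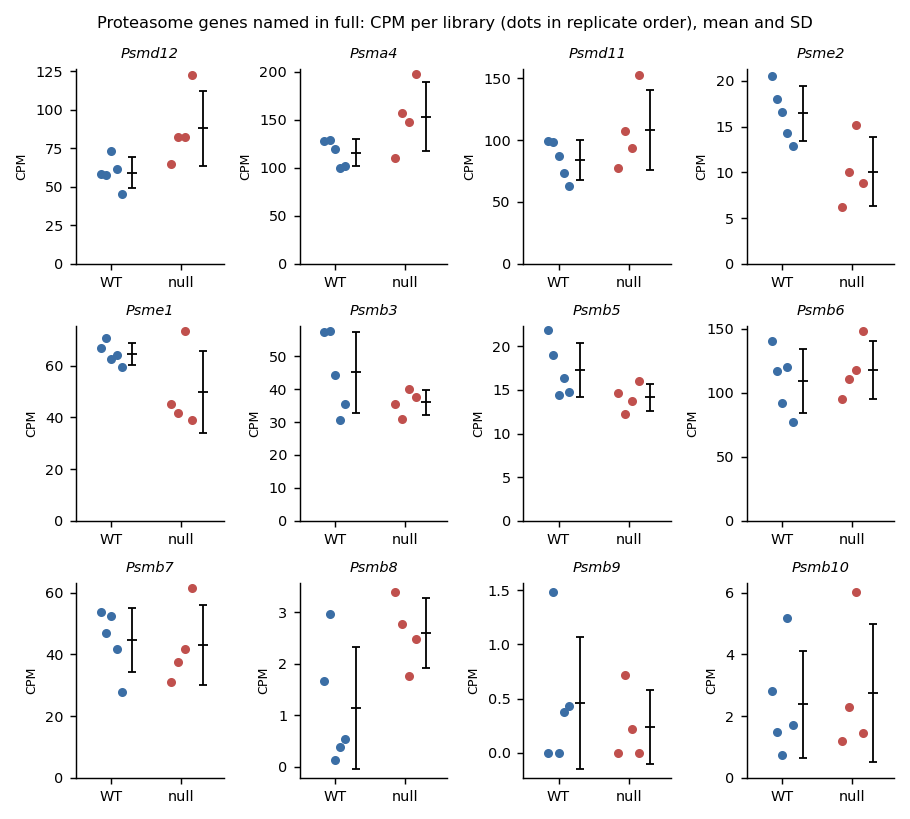
CPM of 12 proteasome genes (vertical axes, scale differs by gene) in the 5 wildtype (WT) and 4 *Atf4* null (null) libraries, with dots for libraries in replicate order and bars for the mean and SD. In every panel the ranges of the 2 genotypes overlap.

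The immunoproteasome subunits were at low levels, with no more than 55 counts in any library. *Psmb8* was at 3.39, 2.76, 1.75 and 2.48 CPM in the *Atf4* null and 1.67, 2.96, 0.124, 0.380 and 0.535 CPM in the wildtype libraries, from 1 to 34 counts per library. Its log2 fold change of 1.19 had a 95% interval from -0.52 to 2.90, an adjusted p of 0.466 and an exact permutation p of 0.0952, and was 1.92 without wildtype library 2. *Psmb10* was at 1.20, 2.28, 6.03 and 1.46 CPM in the null and 2.82, 1.48, 0.741, 5.19 and 1.71 CPM in wildtype libraries, and its interval of -1.30 to 1.70 held changes past 2-fold either way. *Psmb9* had 0, 6, 2 and 0 counts in the null and 0, 12, 0, 3 and 4 counts in wildtype libraries and was not tested. *Psmb11*, the thymus form, had no counts in any library, which allows up to 0.437 CPM in the library with the highest limit (3 counts, for counting error only). These levels were at most 6.03 CPM, where those of *Psmb5* to *Psmb7* ran from 12.2 to 149 CPM. The exons of *Psmb9* overlap those of *Tap1* on the opposite strand, and the strand setting of the counting was not stated in the sources used here.

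The 2 most negative estimates were those of *Psme2* and *Psme1*, both activator subunits. *Psme1* and *Psme2* encode the subunits of the PA28 ring, which opens the gate of the core and is also induced by interferon. *Psme2* (chr14:55824895-55829173) was at 6.18, 10.1, 15.1 and 8.88 CPM in the *Atf4* null and 20.5, 18.0, 16.6, 14.3 and 12.9 CPM in the wildtype libraries. *Atf4* null libraries 1, 2 and 4 were below every wildtype library, and library 3 was among them. The log2 fold change was -0.71 (SE 0.28, 95% interval -1.31 to -0.11), with an adjusted p of 0.174 and an exact permutation p of 0.0397. *Psme1* (chr14:55815190-55822034), its neighbour and partner, was at 45.3, 41.8, 73.2 and 39.2 CPM in the null and 66.8, 70.6, 62.4, 63.9 and 59.3 CPM in wildtype libraries. Null libraries 1, 2 and 4 were again below every wildtype library, while library 3 held the highest level of the 9. The log2 fold change of -0.37 had an adjusted p of 0.276 and an exact permutation p of 0.0794, and without *Atf4* null library 3 it was -0.62 with an adjusted p of 0.0318, the lowest over the 17 alternatives, of which the highest was 0.526. Exons of *Psme2* overlap *Rnf31* and those of *Psme1* overlap *Emc9*. *Psme3* and *Psme4*, the nuclear activators PA28 gamma and PA200, stood at -0.10 and 0.16, and *Psmf1*, the inhibitor PI31, at 0.00, with an interval of -0.55 to 0.56. *Psme2b* was listed at up to 17 counts in 3 libraries and at 0 in 6, and was not tested.

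The 4 Psmg chaperones of 20S assembly were expressed at low levels. The genotypes overlapped in each, as in all but 10.2% of the genes tested. *Psmg1* was at 10.2, 15.6, 11.2 and 15.6 CPM in the *Atf4* null and 15.3, 11.1, 13.2, 13.8 and 12.4 CPM in the wildtype libraries, and its partner *Psmg2* at 9.67, 8.40, 13.2 and 12.5 against 7.70, 16.2, 11.4, 10.5 and 6.10 CPM. Their log2 fold changes were -0.01 and 0.08. *Psmg3* was at 0.897, 4.56, 2.52 and 5.53 CPM in the null and 6.93, 2.96, 2.59, 1.14 and 0.750 CPM in wildtype libraries, and *Psmg4* at 28.4, 19.9, 14.0 and 17.9 against 14.9, 16.2, 23.8, 17.3 and 10.5 CPM. Their log2 fold changes were 0.23 and 0.28, and the genotypes overlapped in both. That of *Psmg3* was -0.12 without *Atf4* null library 4 and 0.85 without wildtype library 1, and that of *Psmg4* was 0.069 without *Atf4* null library 1 and 0.45 without wildtype library 3. *Psmd5*, *Psmd9* and *Psmd10*, which chaperone the ATPase ring, stood at 0.20, 0.27 and -0.30. None of the 7 chaperones was called, beside 5.90% of all genes. *Psmc3ip* and *Psme3ip1*, which carry the symbols but are named for proteins that bind a subunit, stood at 0.24 and 0.33, with adjusted p of 0.582 and 0.360.

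Levels between subunits were compared per length, as FPKM over the length of the canonical transcript, in the wildtype libraries. The 14 core subunits, which the particle holds in equal numbers, ran 15.1-fold, from 6.99 FPKM for *Psmb2* to 106 ± 24.2 FPKM (SD, n = 5) for *Psmb6*. The 17 cap subunits ran 10.6-fold, from 17.5 FPKM for *Psmd14* to 186 ± 24.7 FPKM (SD, n = 5) for *Psmd4*. With the summed length of all annotated exons in place of the canonical transcript, the spans were 16.7-fold and 11.02-fold, with the same extremes except that *Psmc3* and not *Psmd4* was highest in the cap. In the core, neighbours such as *Psma7* and *Psmb4* differed by less than their spread, as did *Psma4* and *Psma6*, so the order between them is not resolved. The order also moved with the length used, *Psma5* from rank 8 to rank 2 in the core and *Psmc1* from rank 9 to rank 2 in the cap. Without division by length, wildtype means in the core ran from 17.3 CPM for *Psmb5* to 116 CPM for *Psma4*.

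**Figure D4:**
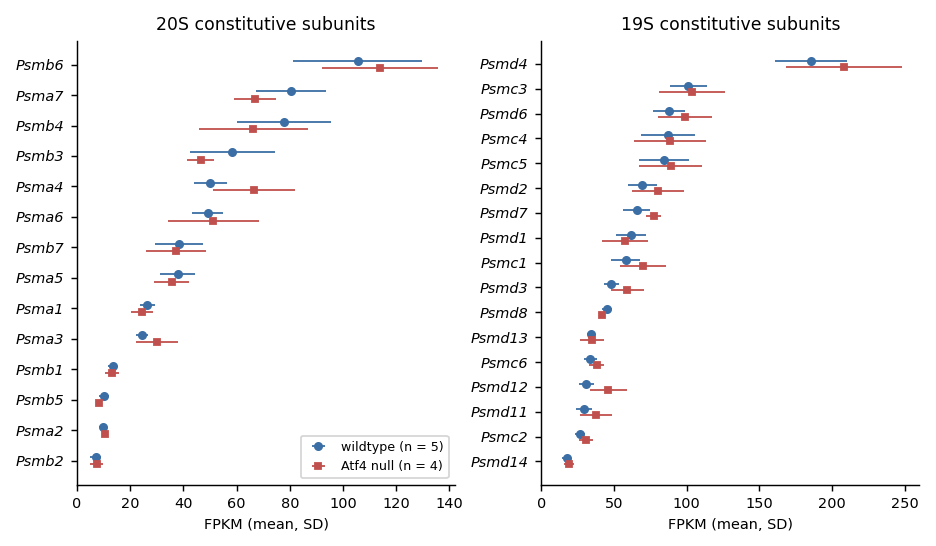
FPKM over the canonical transcript length (horizontal axes) of the 14 core and 17 cap subunits, sorted by the wildtype mean, with circles for wildtype, squares for *Atf4* null and bars for the SD over libraries. Levels span 15.1-fold in the core and 10.6-fold in the cap, and the bars of the 2 genotypes lie close together for most subunits.

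Other genes of the pathway that the symbol rule leaves out were read from a list of 28, of which 27 were tested and *Paaf1* was not matched. 4 of the 27 were called, 2 higher and 2 lower, which is 14.8%, beside 5.90% of all genes. 5 of the 27 did not overlap between genotypes, beside 10.2% of all genes. The call of each of the 4 was lost when at least 1 single library was left out. The count was 7, all higher, without *Atf4* null library 1, 0 without null library 2 or 3 and 3 without null library 4. It was 2 without wildtype library 2, 1 without wildtype library 1, 3 or 4 and 5 without wildtype library 5. Over all genes tested, the count of calls went from 880 to 847 and 845 without null libraries 1 and 4. It went to 527 and 562 without null libraries 2 and 3. Without any 1 of wildtype libraries 1 to 4 it was between 562 and 597. Without wildtype library 5, which held the high muscle and mesenchyme marker levels, it rose to 1207.

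*Pomp*, the chaperone that matures the 20S core, was at 33.6, 33.0, 36.4 and 52.7 CPM in the *Atf4* null and 70.0, 60.6, 73.7, 70.2 and 42.8 CPM in the wildtype libraries. Null libraries 1 to 3 were below every wildtype library, and library 4 was above wildtype library 5. *Pomp* fell by 0.71 on the log2 scale (SE 0.19, adjusted p 0.0497), a call lost without any 1 of *Atf4* null libraries 1 to 3 or wildtype libraries 1 to 4, with an adjusted p of up to 0.149. *Sem1*, the smallest subunit of the 19S lid, was at 36.5, 38.0, 44.6 and 42.9 CPM in the null and 62.1, 47.4, 63.0, 65.6 and 57.1 CPM in wildtype libraries, without overlap. It fell by 0.54 (SE 0.14, adjusted p 0.0417), and the call was lost without any 1 of the 4 null libraries or of wildtype libraries 1, 3 and 4, with library size alone, with no filter on low counts and with a replicate block, with an adjusted p of up to 0.120.

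*Ufd1*, a cofactor of the segregase VCP, was at 37.4, 57.5, 47.7 and 52.4 CPM in the *Atf4* null and 33.8, 27.2, 30.4, 30.4 and 26.9 CPM in the wildtype libraries, without overlap, and rose by 0.71 on the log2 scale (SE 0.16, adjusted p 0.0194). The call of *Ufd1* was lost without *Atf4* null library 2 or 3 or wildtype library 2 and with a replicate block, with an adjusted p of up to 0.0811. *Akirin2*, which carries proteasomes into the nucleus, was at 77.5, 92.5, 84.2 and 107 CPM in the null and 60.5, 69.7, 54.3, 47.6 and 65.4 CPM in wildtype libraries, without overlap, and rose by 0.60 (SE 0.14, adjusted p 0.0242). Its call was lost without any 1 of *Atf4* null libraries 2 to 4 or wildtype libraries 1, 3 and 4, with an adjusted p of up to 0.0850. *Nfe2l1*, which encodes NRF1, was at 213, 269, 277 and 340 CPM in the null and 212, 243, 190, 190 and 175 CPM in wildtype libraries, with null libraries 2 to 4 above every wildtype library, and its log2 fold change of 0.44 had an adjusted p of 0.0929. Over the 17 alternatives that p ran from 0.00837 to 0.204 and was below 0.05 in 3, DESeq2, library size alone and the fit without *Atf4* null library 1.

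**Figure D5:**
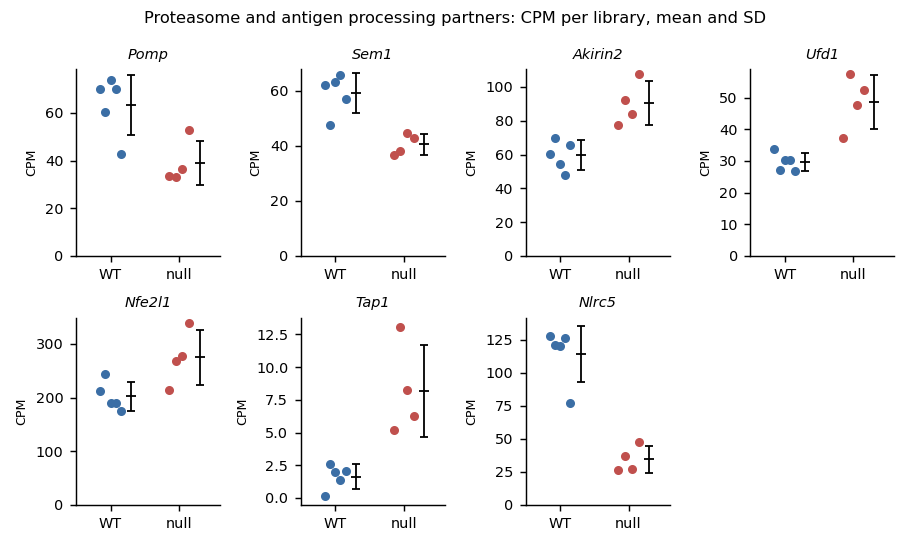
CPM of 7 genes of the proteasome and antigen processing pathways (vertical axes, scale differs by gene) in the 5 wildtype (WT) and 4 *Atf4* null (null) libraries, with dots for libraries and bars for the mean and SD. *Sem1*, *Akirin2*, *Ufd1*, *Tap1* and *Nlrc5* do not overlap between genotypes, and *Pomp* and *Nfe2l1* do.

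The immunoproteasome feeds peptides to MHC class I, and 8 genes of that pathway were listed and tested, of which 2 were called, beside 5.90% of all genes. *Nlrc5*, the transactivator of class I genes, was at 26.0, 36.7, 27.2 and 47.6 CPM in the *Atf4* null and 128, 121, 120.4, 126.4 and 77.2 CPM in the wildtype libraries. It fell by 1.74 on the log2 scale (SE 0.20, adjusted p 0.000247) and was called in all 17 alternatives. *Tap1*, a subunit of the peptide transporter into the endoplasmic reticulum, was at 5.18, 13.1, 8.22 and 6.26 CPM in the null and 0.128, 2.59, 1.98, 1.39 and 2.03 CPM in wildtype libraries. It rose by 2.32 (SE 0.59, adjusted p 0.0355), a call lost without *Atf4* null library 2 or 3 or wildtype library 2, 3 or 4, with an adjusted p of up to 0.144. The genotypes did not overlap in either gene, as in 10.2% of all genes. The other 6 did not pass the test, among them *B2m*, the class I light chain, at 0.07 with an adjusted p of 0.942, and *Irf1*, which acts in the interferon response, at 0.63 with an adjusted p of 0.720.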

How the data were processed

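RNA from whole lenses was sequenced with a stranded low-input kit, 1 library per embryo. As the study's methods state, the authors trimmed reads with Trim Galore, removed ribosomal reads with HISAT2, mapped the remaining reads on GRCm39 and counted them over Ensembl release 104 genes with HTSeq. What the authors deposited are raw gene counts, not normalized. The 5 summary entries of each library, which name no gene and hold 44.6% to 47.7% of its reads, were left out. Whether counting used strand is not given in the sources used here, and exons of 19 of the 51 genes overlap another protein-coding gene. Symbols, positions and lengths came from GENCODE vM39, of the same build. Titles and count tables disagree on which wildtype library is which, which leaves the wildtype replicate numbers uncertain but not the genotype. No 2 of the 9 libraries agreed within sampling noise (lowest chi-square per degree of freedom 7.67 over 36 pairs).

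edgeR 4.0.16 in R 4.3.3 (filterByExpr, TMM, glmQLFit and glmQLFTest, no covariate) compared the genotypes over all genes, with Benjamini-Hochberg adjustment over the 14903 genes tested and a threshold of 0.05. Intervals are 95% intervals from that fit. CPM are scaled by TMM factors, and log2 CPM used a prior count of 1. For single genes an exact two-sided permutation test of the genotype labels was made in Python 3.11.15. Depth limits genes of a few counts. The 17 alternatives were DESeq2 1.42.0, edgeR's exactTest, library size alone, TMM without crystallin genes, no filter, a minimum of 10 counts per library, a robust fit, a replicate block and each library left out. Named in full were genes with an adjusted p below 0.05, the active-site subunits, the Psmg genes, the 3 largest positive and 3 largest negative estimates among genes that averaged 50 counts or more in a genotype, and, of the other lists, genes called plus *Nfe2l1*, *Pomp* and *Sem1*. The members, lists and tests were chosen with earlier results of these data known. Some genes of the pathway lists are not reported here. 5 pseudogenes that match the symbols were left out.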

Additional observations from a re-analysis of the deposited data

Results flagged for a closer look

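4 values lay far from the rest of their group of 5 wildtype libraries, out of 50 groups of values examined, where chance alone marks about 1 in 20. In wildtype library 5 the summed level of the 51 proteasome genes was 2784 CPM, against 3597 to 3910 CPM in the other 4, and the median deviation of the 47 genes tested was -0.34 on the log2 scale. The level of *Nlrc5* in the same library was 77.2 CPM, against 120.4 to 128 CPM. That library also held the high skeletal muscle and mesenchyme marker levels given above. The level of *Psmb9* in wildtype library 2 was 1.48 CPM, from 12 counts, against at most 0.428 CPM in the other wildtype libraries.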

How the results depend on the processing

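Proteasome genes called higher in the *Atf4* null numbered 0, against 1 with DESeq2 (*Psmd12*), 3 with library size alone (*Psma4*, *Psmd12* and *Psmd3*) and 0 to 2 with single libraries left out (*Psma4* and *Psmd12* without *Atf4* null library 1). With library size alone the median log2 fold change of all genes was 0.12 and 61.2% of them were positive. Those called lower numbered 0, and 0 to 1 with single libraries left out (*Psme1*). The median over the proteasome genes ranged from -0.022 to 0.19 with single libraries left out. Of the 27 other pathway genes, 4 were called, 2 higher and 2 lower. There were 8 with DESeq2 (6 higher, 2 lower) and 9 with library size alone (8 higher, 1 lower). With a replicate block there were 2 (1 higher, 1 lower), and 0 to 7 with single libraries left out. The 7, without *Atf4* null library 1, were all higher. *Psmb7* was 0.056 and *Psmg1* 0.11 with library size alone. With single libraries left out, log2 fold changes that changed sign ran from -0.022 to 0.22 for *Psmb6*, -0.28 to 0.081 for *Psmb7*, -0.53 to 0.70 for *Psmb10*, -0.10 to 0.10 for *Psmg1*, -0.062 to 0.29 for *Psmg2* and -0.12 to 0.85 for *Psmg3*. The cause was not tested.

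Libraries that share a replicate number did not deviate together (correlations of -0.118 to 0.00528 over 4 numbers). Since the wildtype numbers are uncertain, this does not settle whether embryos were paired, and the numbers were not used as pairs. With the replicate block, 0 proteasome genes were called in either direction, their median log2 fold change was 0.00, *Psmg2* was -0.035, 2 of the other pathway genes were called and 852 genes were called in all, against 880.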
